A study of Mus musculus with 6 samples.

Results

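The 8 genes of the vitamin D receptor and intestinal calcium transport described here were followed in small intestinal epithelium of mice lacking 2 nuclear receptor corepressors. They were the rows of the deposited count table whose Ensembl identifiers map to Vdr, S100g, Trpv6, Atp2b1, Cyp24a1, Slc30a10, Slc34a2 and Slc8a1, 8 of 55450 rows, and all 8 were found. Of these, 6 had enough counts to be among the 15028 genes tested. The study compared 3 control with 3 double-knockout libraries, each named here by the number in its label, which was taken as a mouse's number. All 6 mice carried homozygous loxP alleles of both targeted corepressor genes, Ncor1 among them. Controls (482, 483 and 486) were negative for Vil1-Cre-ERT2, and knockouts (423, 476 and 477) carried it. Values per library are given in that order throughout. This transgene puts a tamoxifen-activated Cre recombinase under the promoter of villin 1, a gene of the intestinal epithelium. Tamoxifen (15 mg per 100 g body weight, intraperitoneal, for 5 days) was given at 8 to 9 weeks of age, and the mice were moved to metabolic cages at day 21. The labels describe tamoxifen for the mice as a whole, and only the knockouts carried Cre, so the deletion and the transgene cannot be told apart. Epithelium was scraped off the opened gut. Duodenum, jejunum and ileum were collected apart, but which of them a library came from is not stated. The labels do not say whether mice were pooled, so p-values measure the spread between these libraries.

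The vitamin D receptor is a nuclear receptor that binds the hormonal form of vitamin D and, as a partner of a retinoid X receptor, acts on target genes in duodenal and other epithelial cells. Corepressors such as NCoR1 are recruited by nuclear receptors that have no ligand. Calcium crosses an enterocyte in steps: it enters through the apical channel TRPV6, is carried by the small binding protein calbindin-D9k (gene S100g), and leaves through the basolateral pump PMCA1 (Atp2b1) or the sodium-calcium exchanger NCX1 (Slc8a1). CYP24A1 breaks down the hormone and its gene is the classical target of the receptor. Calcium can also pass between cells, through claudin pores.

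Total counts ran from 23476031 to 46835165 per library, and 3 counts corresponded to between 0.0586 and 0.173 CPM. CPM here are read counts relative to library size after TMM scaling, and in bulk tissue a lower CPM can mean fewer cells of a type or less RNA per cell, which cannot be told apart. Ncor1 fell from 126 ± 22.9 to 30.1 ± 7.02 CPM (SD, n = 3), over the whole gene (log2 fold change -2.06, SE 0.25, adjusted p = 0.00045, edgeR quasi-likelihood test). The defining enterocyte genes were abundant in every library: the 5 genes Vil1, Epcam, Alpi, Krt20 and Cdh17 summed to between 11499 and 11681 CPM in controls and between 7196 and 11981 CPM in knockouts, and Vil1 among them fell by 1.20 on the log2 scale. Over the 15028 genes, the share called higher at an adjusted p under 0.05 was 17.3%, the share called lower 18.3% and the share called in either direction 35.6%. In 50.3% all knockout libraries lay on 1 side of all control libraries. Scaling by library size alone turned 2596 higher and 2752 lower genes into 1133 and 4554, with the median of all genes moved by -0.44 on the log2 scale.

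Of the 6 genes tested, 2 rose (S100g and Slc30a10), none fell and 4 did not pass the test; 2 of the 6 had libraries that did not overlap between genotypes, against 50.3% of all genes tested. For the count of 0 that fell, edgeR gave 0 at an unadjusted p under 0.05 and DESeq2 gave 0 as well. The median log2 fold change of the 6 was -0.14, against -0.06 over all genes tested. The counts that rose and fell are to be read against 17.3% and 18.3% of all genes, on 6 genes. The same shares apply to the counts of every list and marker set below, and the same median of -0.06 to their medians. The receptor, the basolateral pump, the exchanger and the phosphate carrier stood at overlapping levels, whereas the calcium-binding protein gene rose 125-fold. Trpv6 and Cyp24a1 had too few counts to be tested.

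**Figure D1:**
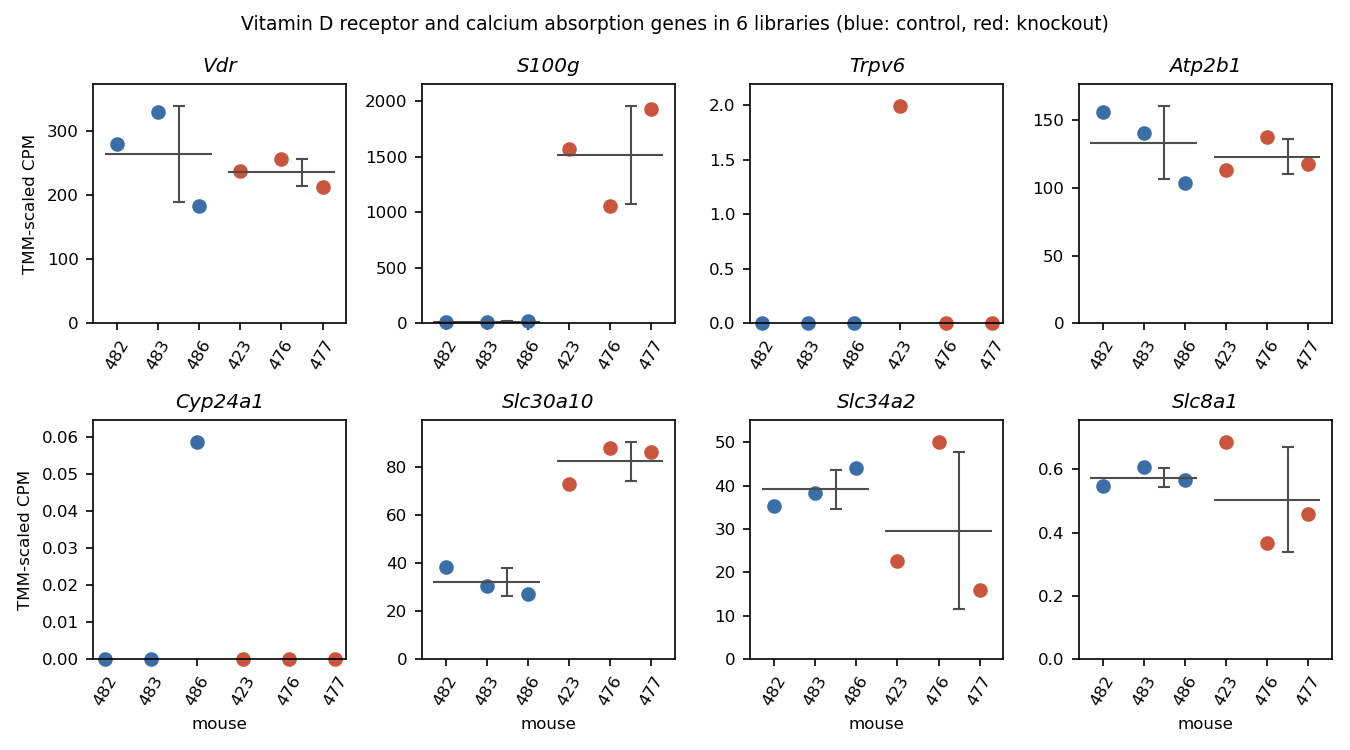
TMM-scaled CPM (vertical axes, each from 0 with its own range) of the 8 genes in the 3 control (blue) and 3 knockout (red) mice, with lines and bars for the mean and SD of 3 where the gene was tested. The knockouts sit above all controls for S100g and Slc30a10, and Trpv6 has counts in knockout 423 alone.

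The receptor gene Vdr (ENSMUSG00000022479, mm10 chromosome 15, 97854425 to 97910630, minus strand) read 280, 330 and 183 CPM in the controls, against 238, 256 and 213 CPM in the knockouts. Each knockout value lay within the range of the controls. The log2 fold change was -0.17 (SE 0.25, adjusted p = 0.63, edgeR quasi-likelihood test). In limma-voom the 95% interval of the log2 difference ran from -0.69 to 0.41, so changes between 0.618-fold and 1.33-fold were within it. With the trend over exon length and GC content removed the sign changed, to 0.25 (adjusted p = 0.44), and without control 483 it was 0.02.

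S100g encodes calbindin-D9k, an EF-hand protein that carries calcium across the enterocyte (ENSMUSG00000040808, chromosome X, 162961992 to 162964599, minus strand, 480 exon bases). It read 11, 7.40 and 18.0 CPM in the controls. The knockouts read 1570, 1054 and 1928 CPM, so the lowest knockout was far above the highest control. The means were 12.1 ± 5.41 and 1517 ± 439 CPM (SD, n = 3), a 125-fold difference. The log2 fold change was 6.96 (SE 0.46, adjusted p = 2.6e-05, edgeR quasi-likelihood test), with a 95% interval in limma-voom from 6.21 to 7.77. It was 6.17 with the length and GC trend removed, a check that bears on S100g because its transcript is short. The gene overlaps Ctps2, which runs on the opposite strand with no shared exon base and read 4.94 ± 0.835 CPM in controls and 4.91 ± 0.733 CPM in knockouts (SD, n = 3).

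The markers of gut position were examined beside S100g because calbindin-D9k is a gene of the proximal intestine. Of 5 proximal markers, Pdx1 (0.379 ± 0.0269 to 3.30 ± 0.868 CPM) and the iron exporter gene Slc40a1 (1.70 ± 0.441 to 23.5 ± 11.1 CPM) rose and none fell. Gata4, the proximal transcription factor, stood at 114 ± 8.17 and 114 ± 17.6 CPM, and Slc11a2 and Cybrd1 did not pass the test. The 5 proximal markers summed to 144 to 157 CPM in controls and 186 to 199 CPM in knockouts. Of 4 distal markers 3 were tested, of which Osr2 fell (46.7 ± 9.66 to 15.2 ± 4.27 CPM) and none rose. Slc10a2 stood at 11.2 ± 7.60 and 4.54 ± 1.61 CPM, with libraries that overlapped, and did not pass. Fgf15, not tested, had 28, 0 and 16 counts in the controls and 0 in every knockout. Fabp6, a distal marker, was at 0.135 to 1.87 CPM in controls and at 0.199 to 1.2 CPM in knockouts, and the 4 summed to 44.9 to 67.0 CPM and 17.8 to 24.5 CPM. The part of these markers in the S100g result was not tested.

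The promoter windows of S100g, Trpv6, Vdr and Slc30a10 are shown so that the gene that rose most, the channel seen in 1 mouse, the receptor and the other gene that rose can be compared. Each is the 250 bases before the annotated start, 5′ to 3′ on the gene's own strand, from RefSeq on GRCm38.p6 (the coordinates of mm10). The places are chrX:162964600-162964849 (minus) for S100g, chr6:41636406-41636655 (minus) for Trpv6, chr15:97908297-97908546 (minus) for Vdr and chr1:185454598-185454847 (plus) for Slc30a10. The Vdr window lies within the span of the gene given above, which reaches 97910630, so it precedes a RefSeq start inside that span. The window searched for Slc34a2 and the second of 2 for Atp2b1 also lay within the spans of those genes. The first window for Atp2b1 began at 98914392, before the start of its span at 98914406, and reached into it. Capitals mark AGGTCA or AGTTCA, half-sites that nuclear receptors of this class bind, on either strand.
S100g: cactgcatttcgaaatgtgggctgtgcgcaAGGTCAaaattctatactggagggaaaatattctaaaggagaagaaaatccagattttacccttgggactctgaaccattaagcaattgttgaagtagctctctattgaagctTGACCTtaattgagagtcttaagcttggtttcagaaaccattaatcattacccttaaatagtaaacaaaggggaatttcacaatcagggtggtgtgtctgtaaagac
Trpv6: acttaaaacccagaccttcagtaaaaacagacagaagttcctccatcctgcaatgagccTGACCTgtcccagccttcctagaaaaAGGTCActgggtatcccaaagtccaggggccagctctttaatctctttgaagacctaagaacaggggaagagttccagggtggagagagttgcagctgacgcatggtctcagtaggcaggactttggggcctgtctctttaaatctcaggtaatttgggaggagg
Vdr: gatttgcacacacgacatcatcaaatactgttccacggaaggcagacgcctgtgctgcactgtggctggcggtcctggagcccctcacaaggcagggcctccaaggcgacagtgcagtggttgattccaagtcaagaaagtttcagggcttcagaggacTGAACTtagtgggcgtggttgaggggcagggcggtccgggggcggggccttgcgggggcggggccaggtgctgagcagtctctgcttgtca
Slc30a10: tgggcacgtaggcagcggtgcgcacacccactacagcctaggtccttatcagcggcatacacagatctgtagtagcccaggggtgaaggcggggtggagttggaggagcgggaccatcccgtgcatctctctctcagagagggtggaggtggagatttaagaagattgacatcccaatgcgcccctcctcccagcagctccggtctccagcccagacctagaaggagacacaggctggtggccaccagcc

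Of the 8 genes 7 had an entry in the promoter table. The search ran over each 300-base window, 250 before and 50 after the start, on both strands. The S100g window held AGGTCA 2 times, at 220 to 215 bases before the start and, on the other strand, at 107 to 102 bases before it. Trpv6 also held it 2 times, at 191 to 186 and at 165 to 160 bases before the start. AGTTCA was found in Vdr, at 91 to 86 bases before the start, and neither half-site was found in Slc30a10, Atp2b1, Slc34a2 or Slc8a1. Of 32851 promoters of the same length, 16.3% held AGGTCA and 14% held AGTTCA. The full VDR DR3 element is a direct repeat of such half-sites spaced by 3 bases. The full element was in none of the windows of these 7 genes, with or without 1 mismatch, against 0.0396% and 1.73% of all promoters. The further receptor targets Cldn2 and Cyp3a11, described below, were searched in the same way. Cyp3a11 held the element with 1 mismatch, on the other strand, at 142 to 128 bases before the start, and also AGGTCA and AGTTCA. Cldn2 held neither half-site nor the element. TATAAA, held by 13.6% of promoters, was in the S100g window, in the 6 bases from the annotated start on. The half-sites are part of the DR3 element, so these searches overlap.

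Slc30a10 encodes a manganese exporter and is a known target of the vitamin D receptor in intestine (ENSMUSG00000026614, chromosome 1, 185454848 to 185468762, plus strand). It read 38.5, 30.6 and 27.2 CPM in the controls, against 73.2, 88.0 and 86.3 CPM in the knockouts. All knockouts were above all controls, by 2.57-fold in the means. The log2 fold change was 1.36 (SE 0.21, adjusted p = 0.0015, edgeR quasi-likelihood test), and the 95% interval in limma-voom ran from 1.89-fold to 3.55-fold. The long noncoding RNA gene Gm2061 runs on the opposite strand and shares 533 exon bases with it, 9.13% of the exon bases of Slc30a10. Gm2061 itself rose by 4.25 on the log2 scale, from 4.17 ± 2.02 CPM in controls to 80.3 ± 26.7 CPM in knockouts (SD, n = 3). Whether counting used strand is not stated in the labels. Reads of the shared bases therefore cannot be told apart, and the part of Gm2061 in the value of Slc30a10 was not tested.

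Trpv6 encodes the apical calcium channel through which calcium enters the enterocyte (ENSMUSG00000029868, chromosome 6, 41620624 to 41636405, minus strand). It had 55 counts in knockout 423 (1.99 CPM) and 0 counts in each of the other 5 libraries. It therefore failed the filter on low counts, and the genotypes overlapped at 0. A fit without that filter called it (adjusted p = 1.2e-08, edgeR quasi-likelihood test) on the counts of that 1 mouse, and DESeq2 did not (adjusted p = 0.15). Knockout 423 also had the highest level of Cybrd1, a duodenal iron reductase gene, at 5.25 CPM, against 0.133 to 1.11 CPM in the other 5 libraries. The other proximal markers did not all set knockout 423 apart. In the knockouts Gata4 read 104, 134 and 104 CPM, and Pdx1 3.80, 2.29 and 3.80 CPM. Slc11a2 read 52.8, 51.1 and 51.8 CPM there, and Slc40a1 32.8, 11.2 and 26.6 CPM. The part of gut position in the Trpv6 counts was not tested. The S100g level of knockout 423, 1570 CPM, was the middle one of the 3 knockouts.

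Cyp24a1, the catabolic enzyme gene (ENSMUSG00000038567, chromosome 2, 170482708 to 170497145, minus strand), had 3 counts in control 486 and 0 in the other 5 libraries. It shares 83 exon bases with Pfdn4 on the opposite strand, which stood at 5.07 ± 2.49 and 13.9 ± 4.64 CPM (SD, n = 3). At this depth no difference was detectable, since a count of 0 allows up to 0.173 CPM in the shallowest library. The gene was thus at or under the limit of detection in all 6 libraries, in the controls, where S100g was low, as in the knockouts, where it was high.

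Atp2b1, the gene of the basolateral calcium pump (ENSMUSG00000019943, chromosome 10, 98914406 to 99026143, plus strand), read 156, 140 and 104 CPM in the controls. The knockouts read 113, 138 and 117 CPM, all within the control range. The log2 fold change was -0.12 (SE 0.22, adjusted p = 0.70, edgeR quasi-likelihood test), with a 95% interval in limma-voom from 0.665-fold to 1.30-fold. Its sign changed with the length and GC trend removed (0.49, adjusted p = 0.080) and without control 482 (0.0054). Slc8a1, the exchanger gene (ENSMUSG00000054640, chromosome 17, 81373105 to 81738377, minus strand), was low in every library, with 0.548, 0.608 and 0.566 CPM in the controls against 0.688, 0.366 and 0.460 CPM in the knockouts. The knockouts lay on both sides of the controls (log2 fold change -0.18, SE 0.45, adjusted p = 0.78, edgeR quasi-likelihood test). NCX1 is abundant in muscle and nerve, and the smooth muscle markers Acta2, Myh11, Tagln, Des and Cnn1 summed to 4.24 to 33.5 CPM in controls and 1.79 to 60.3 CPM in knockouts, while Elavl4 of the neuron list was at 0 in all 6 libraries.

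Slc34a2 encodes NaPi-IIb, the sodium-phosphate cotransporter of the small intestine (ENSMUSG00000029188, chromosome 5, 53038081 to 53071664, plus strand). It read 35.2, 38.3 and 44.1 CPM in the controls, against 22.5, 50.1 and 15.9 CPM in the knockouts. Knockout 476 was the highest of all 6 libraries and the other two knockouts were the lowest. The log2 fold change was -0.40 (SE 0.37, adjusted p = 0.41, edgeR quasi-likelihood test). Without knockout 476 it was -1.01 and passed the test (adjusted p = 0.018).

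Per kilobase of exon, which allows levels to be set between genes, Vdr was the highest of the 8 in controls at 46.8 ± 13.2 CPM per kilobase (SD, n = 3). S100g followed at 25.3 ± 11.3, with a range that overlapped that of Vdr. Atp2b1 (8.76 ± 1.77) and Slc34a2 (7.82 ± 0.90) overlapped each other, and Slc30a10 stood at 5.49 ± 0.99 CPM per kilobase. Slc8a1 was the lowest of those tested at 0.0305 ± 0.0016 CPM per kilobase. In knockouts S100g was first at 3161 ± 914 CPM per kilobase, ahead of Vdr at 41.7 ± 3.83. Slc30a10 stood at 14.1 ± 1.39, above Atp2b1 at 8.07 ± 0.85, and Slc34a2 at 5.89 ± 3.62 CPM per kilobase overlapped Atp2b1.

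**Figure D2:**
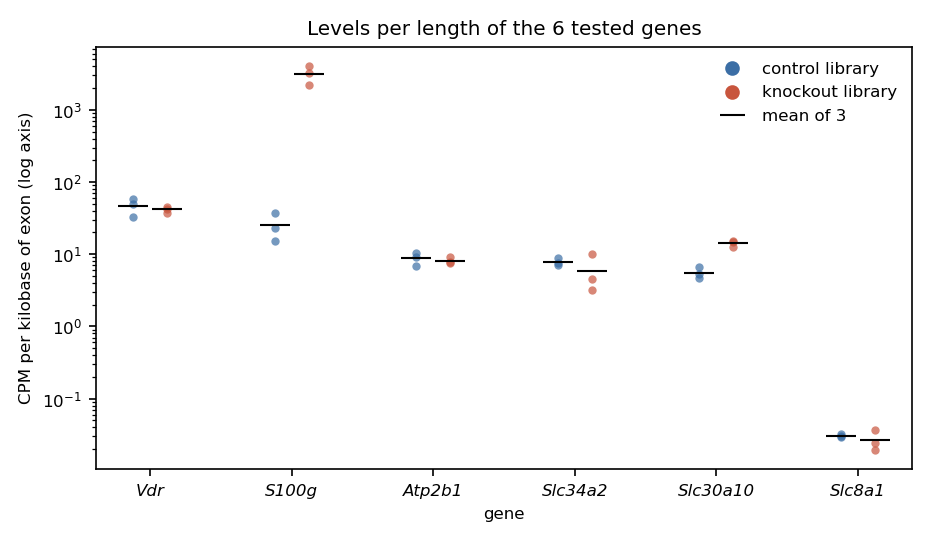
Level per kilobase of exon (log axis) of the 6 tested genes in each control (blue) and knockout (red) library, with bars at the mean of 3. S100g moves from 25.3 to 3161 CPM per kilobase, while Vdr and Atp2b1 stay within their control ranges.

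Among other genes known as targets of the receptor in intestine, 6 of 7 were tested, of which 2 rose, none fell and 4 did not pass, at a median log2 fold change of 0.43 (fell: 0 by edgeR also at an unadjusted p under 0.05, and 0 by DESeq2). Cldn2, which encodes a claudin that forms a pore for calcium and sodium, read 5.54, 2.74 and 4.71 CPM in the controls, against 261, 206 and 242 CPM in the knockouts. All knockouts were far above all controls (log2 fold change 5.76, SE 0.32). Cyp3a11, a drug- and steroid-oxidising enzyme gene, read 2237 ± 407 CPM in controls and 20558 ± 9242 CPM in knockouts (SD, n = 3), a log2 fold change of 3.20. It has near-identical paralogs, so the share of reads given to it is uncertain. Abcb1a, an efflux pump gene, stood at 631 ± 151 and 668 ± 148 CPM, and Cldn12, a second calcium claudin gene, at 32.3 ± 9.17 and 44.1 ± 12.1 CPM. Trpv5, the renal channel next of kin to TRPV6, had no count in any library.

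Among partners of the receptor and vitamin D enzymes, 1 gene rose, 6 fell and 4 did not pass, of 11 tested of 15, at a median log2 fold change of -0.95. Over all genes tested, 17.3% were called higher and 18.3% lower, at a median of -0.06. Rxra, the dimer partner, read 137, 145 and 115 CPM in the controls, against 65.6, 68.1 and 53.7 CPM in the knockouts. It fell in every knockout below every control (log2 fold change -1.08, SE 0.20, adjusted p = 0.0038, edgeR quasi-likelihood test). Rxrb stood at 22.5 ± 1.39 and 20.0 ± 1.97 CPM, and Rxrg had no count. Cyp2r1, a gene of vitamin D hydroxylation in liver and the 1 that rose, read 0.569, 1.49 and 1.17 CPM in the controls, against 2.35, 5.09 and 5.52 CPM in the knockouts (log2 fold change 2.01, SE 0.47). The coactivator gene Ncoa1 fell by 1.36 on the log2 scale. Cyp27a1, a mitochondrial sterol hydroxylase gene, fell by 2.03 on the log2 scale. Dhcr7, whose enzyme uses the precursor of vitamin D to make cholesterol, fell by 1.26. Cyp27b1, which makes the hormonal form, had no count in any library, nor had Lrp2.

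The list of calcium entry channels other than Trpv6 had 1 gene that rose and 4 that fell of 9 tested of 12 (median log2 fold change -0.91). It also holds Stim1 and Stim2, which encode sensors of calcium stores and not channels. Stim1 was among the 4 that fell (log2 fold change -0.97), and Stim2 did not pass. Trpm6, an epithelial magnesium channel gene, fell from 2.40 ± 0.68 to 0.303 ± 0.171 CPM (SD, n = 3). Its log2 fold change was -2.94, and -3.53 without knockout 476. The voltage-gated channel gene Cacna1d fell from 0.697 ± 0.167 to 0.140 ± 0.0638 CPM. Of the store-operated channel genes, Orai1 fell by 1.21 on the log2 scale and Orai3 rose by 0.98. The call of Orai3 (adjusted p = 0.020, edgeR) was lost without control 482 (0.071) or knockout 476 (0.066) and with library-size scaling alone (0.18). With the length and GC trend removed 2 of the list fell, and Cacna1d no longer passed (0.052).

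Calb1, the larger calbindin, had 2 counts in control 486 and 0 elsewhere. Of 14 genes on the S100 list 9 were tested, of which 1 rose, 1 fell and 7 did not pass (median -0.44). S100pbp, among the 7, encodes a binding partner of an S100 protein and is not itself an S100 gene. S100a1 fell from 37.2 ± 9.97 to 11.2 ± 2.83 CPM, and S100a5 went from 0.0656 ± 0.0960 to 0.587 ± 0.244 CPM. The call of S100a5 (adjusted p = 0.024, edgeR) was lost without control 482 (0.077), control 483 (0.055) or knockout 423 (0.083), and it was not tested without knockout 476. Its log2 fold change was 2.95, and 5.15 without control 486. Of the list 3 fell without control 483, 5 with library-size scaling alone and 4 with the length and GC trend removed. S100a10, the most abundant of the list, stood at 687 ± 219 and 836 ± 184 CPM.

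Pumps and exchangers other than Atp2b1 and Slc8a1 included 4 that fell and none that rose, among 6 tested of 16 (median log2 fold change -0.79; rose: 0 by edgeR also at an unadjusted p under 0.05, and 0 by DESeq2). The plasma membrane pump gene Atp2b4 stood at 1.61 ± 1.01 and 1.07 ± 0.40 CPM and did not pass. Atp2b2 had 76, 10 and 13 counts in the controls, 99 in all, and 0 in every knockout. It was not tested, and it was at least 19.3-fold lower against 3 counts over the knockout group. Without control 482, which held most of the counts, that limit was 7.12-fold, and without knockout 423 or knockout 476 it was 12.2-fold or 11.6-fold. The endoplasmic reticulum pump gene Atp2a3 read 120 ± 55.8 CPM in controls and 18.4 ± 4.02 CPM in knockouts (SD, n = 3), a log2 fold change of -2.71, and Atp2a2, of the same family, fell by 0.73 on the log2 scale. The Golgi calcium and manganese pump gene Atp2c1 fell by 0.84 and the mitochondrial exchanger gene Slc8b1 by 1.05 on the log2 scale. Without control 482 or control 483, 2 of the list fell, and with the length and GC trend removed 1 fell. The call of Slc8b1 (adjusted p = 0.047, edgeR) held in the absence of knockout 476 alone among the libraries, with adjusted p from 0.061 to 0.14 without each of the others, and was also lost with upper-quartile scaling (0.055) and without a filter (0.066). That of Atp2a2 (0.022) was lost without control 482, control 483, knockout 476 or knockout 477 (0.061 to 0.088).

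Among genes of calcium release and sensing 1 rose and 3 fell, of 8 tested of 11 (median log2 fold change -0.56), and 6 fell with library-size scaling alone. The inositol trisphosphate receptor gene Itpr2 read 27.0, 16.9 and 13.9 CPM in the controls, against 1.48, 0.964 and 0.460 CPM in the knockouts. All knockouts were below all controls (log2 fold change -4.27, SE 0.42). Itpr3 fell by 1.81 on the log2 scale. Ryr3, a low-level release channel gene, fell by 3.21 on 4 counts over the knockouts, with a log2 fold change of -4.33 without knockout 476 and -1.60 in limma-trend. With the length and GC trend removed the log2 fold changes were -3.56 for Itpr2, -1.06 for Itpr3, -2.56 for Ryr3 and 1.61 for Itpr1. Itpr1 rose by 0.81, and its call (adjusted p = 0.038, edgeR) was lost without any 1 library other than control 483 (0.074 to 0.11) and with library-size scaling alone (0.34). Casr, the calcium-sensing receptor gene, had at most 2 counts in a library. Tuft cell markers fell with these genes: Pou2f3, Trpm5 and Dclk1 summed to 37.8 to 117 CPM in controls and 0.805 to 5.43 CPM in knockouts, and their part in the values of Itpr2 and Atp2a3 was not tested.

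On the paracellular route 1 gene rose and 2 fell of 5 tested of 7 (median log2 fold change -0.15). Against the rise of Cldn2, Cldn15, the other cation pore claudin of the small intestine, read 566, 773 and 565 CPM in the controls, against 216, 179 and 240 CPM in the knockouts. All knockouts were below all controls (log2 fold change -1.58, SE 0.24). The scaffold gene Tjp1 fell by 0.84 on the log2 scale, a call (adjusted p = 0.020, edgeR) that was lost without control 482, knockout 423 or knockout 477 (0.064 to 0.085) and with the length and GC trend removed (0.12). Ocln stood at 135 ± 11.3 and 121 ± 13.1 CPM. Cldn16 and Cldn19, claudins of the kidney, had no count.

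Among phosphate transport genes other than Slc34a2, 3 fell and none rose, of 6 tested of 7 (median log2 fold change -0.72). For the count of 0, edgeR gave 0 also at an unadjusted p under 0.05 and DESeq2 gave 0, while 1 rose with the length and GC trend removed. Slc34a3, a relative of Slc34a2 known from the kidney, read 2.21, 1.22 and 3.11 CPM in the controls and had 0 counts in every knockout, at least 58.6-fold lower against 3 counts over the knockout group (37.0-fold without knockout 423 and 35.1-fold without knockout 476). Xpr1, the phosphate exporter gene, fell by 1.38 and Pdzk1, a brush border scaffold gene, by 1.02 on the log2 scale. With the length and GC trend removed the log2 fold change of Xpr1 was -0.71. Slc20a1, a widely expressed phosphate carrier gene, stood at 66.2 ± 27.0 and 92.4 ± 18.4 CPM, and Slc34a1 had at most 4 counts in a library.

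Slc30a10 was set beside its family and the carriers of manganese. Of the 9 other SLC30 genes 7 were tested, of which 2 rose, 1 fell and 4 did not pass (median log2 fold change 0.23). The zinc exporter gene Slc30a1 read 13.9, 14.9 and 15.2 CPM in the controls, against 57.3, 68.5 and 76.2 CPM in the knockouts. All knockouts were above all controls (log2 fold change 2.20, SE 0.19). Slc30a6 rose by 0.88 and Slc30a2 fell by 1.04 on the log2 scale, and with library-size scaling alone Slc30a6 did not pass (adjusted p = 0.10, edgeR) and 3 of the list fell; with the length and GC trend removed 4 rose. Of 5 manganese carrier genes 2 rose and 2 fell (median 0.60). Slc39a8, which brings manganese and zinc into cells, read 3.87 ± 0.38 CPM in controls and 35.1 ± 4.05 CPM in knockouts (SD, n = 3), and rose by 3.18 on the log2 scale, and Slc40a1 rose as given above. Slc39a14, a basolateral importer gene, went from 111 ± 30.2 to 62.1 ± 9.45 CPM, and its call (adjusted p = 0.025, edgeR) was lost without control 482, control 483, knockout 423 or knockout 477 (0.051 to 0.11). With the length and GC trend removed 0 of the list fell.

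**Figure D3:**
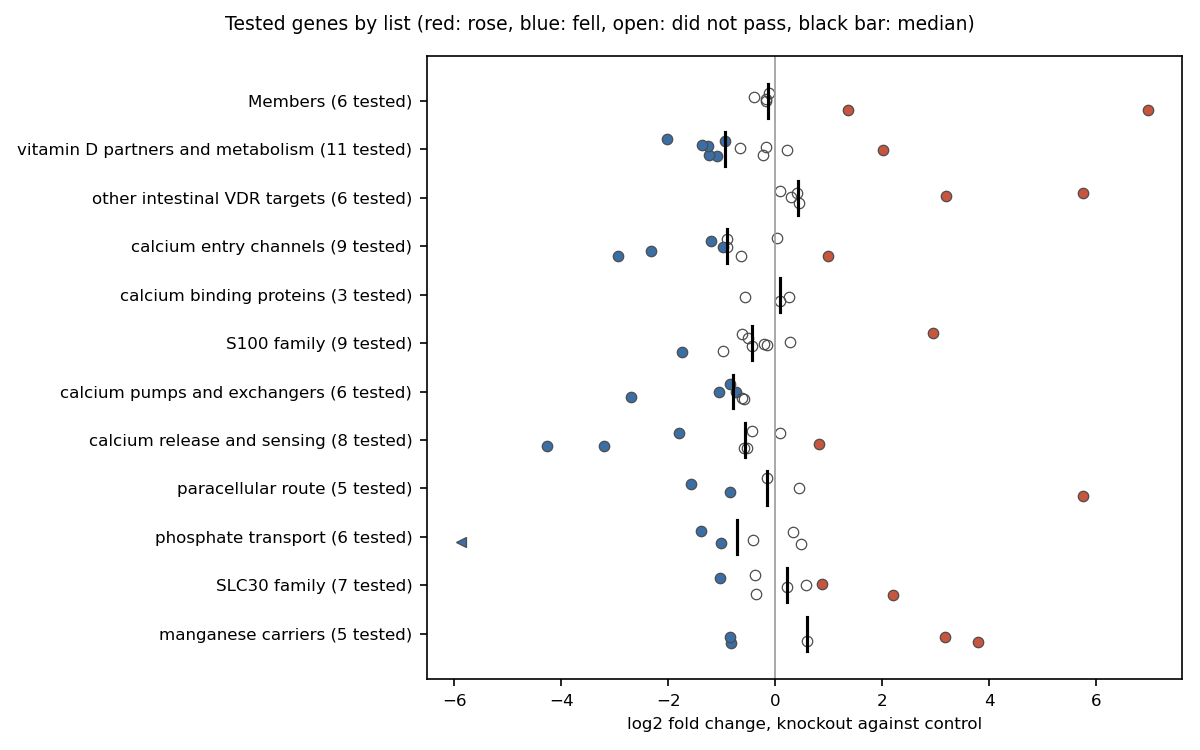
Log2 fold change (knockout against control) of every tested gene in the 8-gene group (top row, 6 tested) and in 11 lists of related genes, with red for genes that rose, blue for genes that fell, open circles for genes that did not pass and black bars for medians. The left-pointing triangle is Slc34a3 at its bound against 3 counts over the knockout group; S100g lies farthest to the right at 6.96, and Cldn2 appears in 2 lists at 5.76.

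Among other cell types the scraping could have carried along, T cell and leukocyte markers summed to 45.8 to 134 CPM in controls and 53.8 to 67.4 CPM in knockouts, and fibroblast markers to 6.43 to 13 CPM and 5.48 to 8.05 CPM. Of the 5 T cell and leukocyte markers Ptprc fell, from 28.2 ± 11.3 to 8.17 ± 1.39 CPM (SD, n = 3), and 4 did not pass. Trac, among those 4, went the other way, from 3.98 ± 2.86 to 9.75 ± 2.41 CPM. Erythrocyte genes, of which 5 of 5 rose, summed to 7.95 to 22.2 CPM in controls and 35.5 to 543 CPM in knockouts. Knockout 477 was the highest of the 6 libraries for the erythrocyte genes, and it also had the highest S100g level, 1928 CPM. The part of these markers in the results was not tested. Without knockout 477 the log2 fold change of S100g was 6.76 (adjusted p = 6.4e-05, edgeR).

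**Figure D4:**
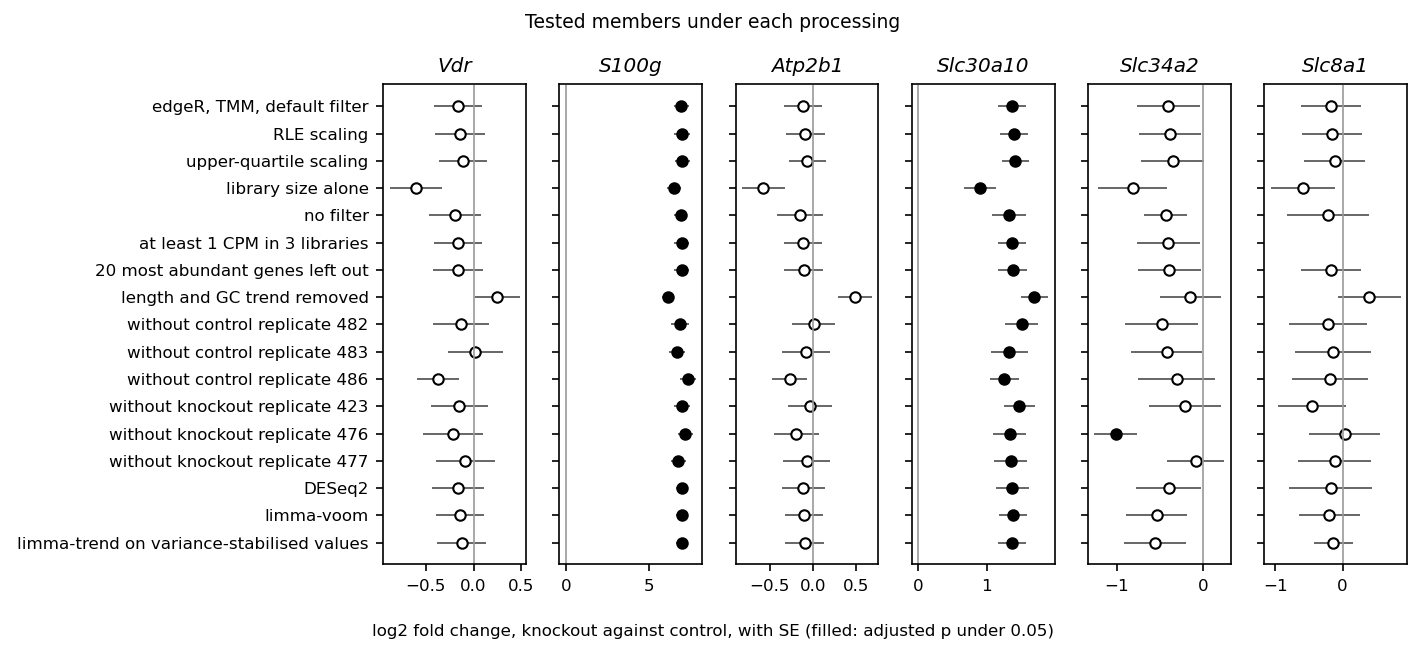
Log2 fold change with its SE of the 6 tested genes (knockout against control) under each processing, with filled points for an adjusted p under 0.05. S100g and Slc30a10 are filled under all 17 settings, Slc34a2 is filled without knockout 476 alone, and Vdr, Atp2b1 and Slc8a1 are open wherever they were tested.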

How the data were processed

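PolyA RNA of scraped small intestinal epithelium was sequenced in 3 control and 3 knockout libraries, per the labels. The authors deposited whole-number counts per gene, not normalized, and variance-stabilised values on a log2 scale, used for 1 alternative only. Tools named in the submitters' processing notes include STAR 2.7.9a for build mm10, featureCounts (Subread 1.6.2), DESeq2 1.23.10 and fastp 0.21.0; their annotation and strand setting are not given in the labels. Symbols (55104 of 55450 identifiers), coordinates and exon lengths came from GENCODE M21 on mm10.

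Counts were filtered with filterByExpr (15028 genes left), scaled with TMM and tested across all genes with edgeR 4.0.16 (R 4.3.3; quasi-likelihood, robust; Benjamini-Hochberg, threshold 0.05). The SE is the log2 fold change over the square root of F. Intervals came from limma 3.58.1 (voom), which with DESeq2 1.42.0 was also an alternative. Alternatives were other scalings, filters and tools, the 20 most abundant genes left out, a length and GC offset and each library left out. The fit was tested on simulated data. The 8 genes, the lists and the tests were chosen with earlier results of these data known, so no count is independent support. Named genes were the 8, up to 4 called genes per list by adjusted p, and 9 genes set whatever their result. Genes added after their values were seen were Cybrd1, Pfdn4, Gm2061, Ctps2, Atp2b2, Abcb1a, Cldn12, Ocln, S100a10, S100pbp, Cyp2r1, Rxrb, Rxrg, Lrp2, Casr, Stim1, Stim2, Cldn16, Cldn19, Slc10a2, Fgf15, Ptprc and Trac. Libraries of a genotype differed by more than counting noise (chi-square per degree of freedom 71.3 or more), so each was counted as 1 sample. Limits from 3 counts cover counting error only. The second targeted gene and some genes of the lists are not reported here.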

Additional observations from a re-analysis of the deposited data

How the results depend on the processing

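The calls of S100g and Slc30a10 kept their direction and their side of the threshold under all 16 alternatives, with log2 fold changes of 6.17 to 7.36 and of 0.90 to 1.69. Scaling by library size alone gave 1133 higher and 4554 lower genes and 39 lower genes on the lists, against 25 in the reported fit and 19 to 29 under the other alternatives, and it moved the median of all genes by -0.44. The fit without a filter moved it by -0.13 and the removal of the length and GC trend by 0.16. Leaving out each library gave 1510 to 2958 higher and 1748 to 2982 lower genes, and 0 to 1 lower genes of the 8 (Slc34a2, without knockout 476). Without control 482 the counts were 1510 and 1789, without control 483 1555 and 1990, and without knockout 477 1648 and 1748. Values that changed sign did so without passing the test. With the length and GC trend removed these were Vdr (0.25), Atp2b1 (0.49), Slc8a1 (0.40) and Atp2b4 (0.092). With 1 library left out, Vdr ran from -0.37 to 0.018 (without control 483), Atp2b1 from -0.27 to 0.0054 (without control 482) and Slc8a1 from -0.46 to 0.029 (without knockout 476); the cause was not tested. No paired analysis was possible because the genotypes share 0 mouse numbers. Depth limits Trpv6, Cyp24a1 and Slc8a1, whose counts were few.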

Other observations

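Counting genes with at least 20 counts in 1 library and 0 in the other 5, a rule chosen after the data were seen, gave 1 gene for knockout 423, and that gene was Trpv6. The same count was 1 for control 482, 4 for control 483 and 0 for control 486, knockout 476 and knockout 477. The 4 of control 483 included Stra6, Cacna1i and Madcam1.

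The genes whose log2 CPM followed S100g most closely over the 6 libraries, among 9005 with a mean of at least 5 CPM, were Mpg, H2-Q10, Slc15a4, Cbr3 and Gars (Pearson r of 0.998, 0.997, 0.997, 0.997 and 0.997). With 2 separated genotypes such values are common: 601 genes reached an r of 0.95, so they are a description and carry no test. The log2 fold changes of these 5 ran from 0.40 (Slc15a4) to 8.54 (Cbr3), against 6.96 for S100g. For Vdr, 10 genes reached an r of 0.95, and the closest were Cers6, Ric1, Klf16, Ddx6 and Otud4 (r of 0.985, 0.980, 0.962, 0.959 and 0.958), with adjusted p from 0.47 to 0.94 (edgeR).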
